A study of Rattus norvegicus with 108 samples.

Results

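Of 1289 annotated cells from the dorsal dentate gyrus (dorDG) of the rat, 147 (11.4%) carried the name InhibNeuron in the authors' cell annotation, and these cells are described here. Membership came from that annotation alone. The cells were compared mainly with the other annotated neurons, 55 cells named ExcitNeuron and 119 named Granule. The label was not borne out by its defining genes: the vesicular GABA transporter gene Slc32a1 was at 0 in all 147 cells, and the cells are therefore called InhibNeuron cells below, after their annotation, and not inhibitory neurons.

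Male Long-Evans rats from Charles River, 2 months old at the start, received fluoxetine, a selective serotonin reuptake inhibitor, at 18 mg/kg body weight (FT) or water (Sham) for 6 weeks. The dorDG was micropunched, each replicate pooled tissue from several animals, and RNA was counted with droplet-based 3′ sequencing in 13 reactions over 4 FT and 5 Sham replicates. The labels speak of nuclei, whereas the methods describe suspensions of cells and of nuclei, and neither says which reaction held which. FT replicates 1 and 2 and Sham replicates 1 and 2 each had a first and a second reaction, and the other 5 replicates had a single reaction.

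Inhibitory neurons of the dentate gyrus make GABA with the decarboxylases encoded by Gad1 and Gad2 and load it into vesicles through the transporter encoded by Slc32a1. They fall into classes known by peptides and calcium-binding proteins, among them parvalbumin, somatostatin, neuropeptide Y, cholecystokinin and VIP, and many carry ErbB4, a neuregulin receptor. Granule cells are the principal excitatory neurons of the same tissue. They release glutamate, which the transporter encoded by Slc17a7 loads into vesicles, and they are marked by the transcription factor Prox1.

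The 147 InhibNeuron cells held 1014380 unique molecular identifiers (UMIs), with a median of 5846 UMIs and 3100 genes per cell. The 4 FT replicates contributed 27 cells, in numbers of 14, 5, 4 and 4. Sham replicates 1, 3, 4 and 5 contributed 47, 31, 16 and 26 cells, and Sham replicate 2 contributed 0 of its 138 cells. None of the 147 cells shared its barcode with a cell of another dorDG reaction, against 6 dorDG cells that did. ExcitNeuron cells had a similar depth (median 6372 UMIs), whereas Granule cells were shallower (median 1402 UMIs), so shares of cells with a UMI are given with the level per 10000 UMIs or after thinning each cell to 1000 UMIs. Levels given with no replicate pool all cells of a name, and 752202 of the InhibNeuron UMIs came from Sham, so ranks among the 12 types depend in part on that mix.

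The libraries and cells were not alike in RNA content. In 117 of the 147 InhibNeuron cells, less than 2% of the UMIs came from ribosomal protein genes. Such low-ribosomal cells made up 2 of 13 InhibNeuron cells in first reactions, 53 of 53 in second reactions and 62 of 81 in single reactions. They were 37.0% of the FT cells and 89.2% of the Sham cells. The median depth was 9709 UMIs in FT and 5152 in Sham InhibNeuron cells, and the median mitochondrial share was 5.00% and 2.00%. Any difference between FT and Sham, or between cell names, came with these differences. Intervals given for shares are 95% Wilson intervals and, like the limits for counts of 0, cover counting error only.

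The GABA genes were sparse. Gad1 had a UMI in 25 of 147 InhibNeuron cells (17.0%, interval 11.8% to 23.9%), at 0.30 UMIs per 10000. The same gene had a UMI in 21.8% of ExcitNeuron cells (0.34 per 10000) and 10.9% of Granule cells (0.49 per 10000). Gad1 was thus no higher in InhibNeuron cells than in the other neurons. Gad2 had a UMI in 19 InhibNeuron cells (12.9%, interval 8.43% to 19.3%), at 0.22 UMIs per 10000, against 0.14 in ExcitNeuron and 0.19 in Granule cells. This was the highest Gad2 level among the 12 types, with Granule cells next. Slc32a1 had 0 UMIs in the 147 cells, which allows a share of up to 2.04%. It was detected at 0.22 UMIs per 10000 in ExcitNeuron cells, the highest level of the 3 neuron names. That level rested on 9 UMIs in 2 of 55 ExcitNeuron cells, with up to 7 in a cell. At least 1 UMI of these 3 genes was found in 41 InhibNeuron cells (27.9%, interval 21.3% to 35.6%), in 29.1% of ExcitNeuron cells and in 13.4% of Granule cells. In glia, which should lack these genes, the share was 7.60% in Oligodend1 cells (median 2499 UMIs per cell) and 17.2% in the deeper oligodendrocyte precursors (median 6104). After thinning to 1000 UMIs it was 7.48% in InhibNeuron, 9.43% in ExcitNeuron, 6.33% in Granule, 2.78% in Oligodend1 and 1.57% in Microglia1 and Microglia2 cells together. At equal depth the InhibNeuron share thus lay above those of Oligodend1 and Microglia cells and between the other neuron names. No thinned share of the 3 genes together was taken for oligodendrocyte precursors.

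Counts per cell were equally low. In InhibNeuron cells the 3 GABA genes summed to at most 2 UMIs in any cell, 11 cells had 2, and 0 of 147 had 3 or more. Across all of dorDG, 7 cells had 3 or more, of which 3 were named Granule, 2 ExcitNeuron, 1 Microglia2 and 1 Oligodend2. The highest, an ExcitNeuron cell of FT replicate 2 with 2058 UMIs, had 2 UMIs of Gad1, 2 of Gad2 and 7 of Slc32a1, with 0 of Slc17a7 and 0 of Prox1. By replicate, Gad1 in InhibNeuron cells was at 0.65, 0.35, 0.25 and 0.23 UMIs per 10000 in FT and at 0.17, 0.33, 0.22 and 0.25 in Sham. Gad2 was at 0, 0, 0.25 and 0.70 in FT and at 0.28, 0.19, 0.22 and 0.25 in Sham. Even the highest replicate values, 0.65 for Gad1 and 0.70 for Gad2, were well below those of Slc17a7 in the same cells.

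Of 6 further measured genes for GABA uptake and inhibitory transcription factors, Dlx1, Dlx5, Dlx6 and Gata3 were at 0 in InhibNeuron cells. The 1 listed identity gene that was common was Erbb4, with a UMI in 86.4% of InhibNeuron cells, at 4.69 UMIs per 10000. Erbb4 did not single these cells out: it was at 4.17 in ExcitNeuron, 4.14 in Granule and 4.06 in Oligodend1 cells and highest, at 6.66, in oligodendrocyte precursors. After thinning, 37.4% of InhibNeuron and 44.4% of Oligodend1 cells had an Erbb4 UMI.

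**Figure D1:**
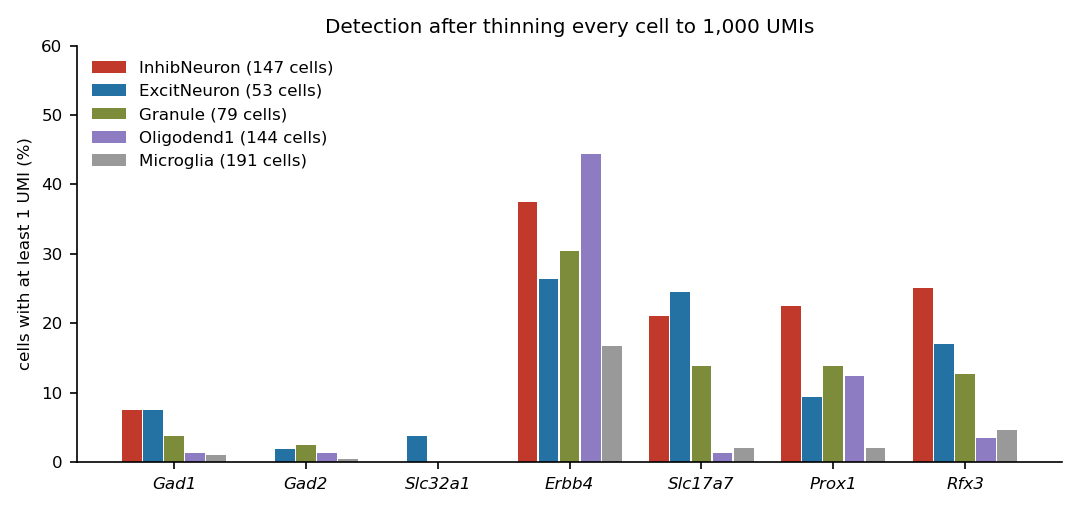
Percent of cells with at least 1 UMI after thinning every cell to 1000 UMIs, for the 3 GABA genes, Erbb4, Slc17a7, Prox1 and Rfx3, in 5 sets of annotated cells (bars; cells under 1000 UMIs left out). Gad1 reached 7.48% in InhibNeuron cells and Gad2 and Slc32a1 0%, whereas Slc17a7 reached 21.1% and Prox1 22.4%.

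Slc17a7 and Nrgn, genes of glutamatergic neurons, were far more common in the same cells. Slc17a7 had a UMI in 77.6% of InhibNeuron cells (interval 70.2% to 83.5%), at 3.21 UMIs per 10000, with up to 19 UMIs in a cell. ExcitNeuron cells had 5.20 and Granule cells 1.12 per 10000, and Oligodend1 cells 0.17. By replicate, Slc17a7 was at 4.07, 6.36, 5.00 and 6.33 in FT and at 2.31, 1.43, 3.96 and 3.59 in Sham InhibNeuron cells. Every replicate with InhibNeuron cells therefore had more Slc17a7 than Gad1, Gad2 and Slc32a1 UMIs together. In single cells, Slc17a7 UMIs outnumbered those of the 3 GABA genes in 100 of the 147 cells and the reverse held in 10. Nrgn, which encodes the postsynaptic calmodulin-binding protein neurogranin, had a UMI in 75.5% of cells at 4.38 per 10000. Nrgn was at its highest among the 12 annotated types in InhibNeuron cells. Other listed genes of excitatory neurons were as sparse as the GABA genes. Slc17a6, which encodes another vesicular glutamate transporter, was at 0.18 per 10000 and the transcription factor gene Tbr1 at 0.16. Neurod6, a transcription factor of pyramidal neurons, was at 0.07 in InhibNeuron against 1.37 in ExcitNeuron cells.

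Most granule cell genes were also higher in the InhibNeuron cells than in the cells named Granule. Prox1 had a UMI in 67.3% of InhibNeuron cells (interval 59.4% to 74.4%), at 1.88 UMIs per 10000, against 1.13 in ExcitNeuron, 0.90 in Granule and 0.93 in Oligodend1 cells. The replicates had 1.46, 1.77, 1.50 and 0.70 in FT and 1.90, 2.63, 1.42 and 2.09 in Sham. The 2 groups overlapped. Rfx3, a ciliary transcription factor listed for granule cells, had a UMI in 75.5% of cells at 3.04 per 10000, and Calb1, which encodes calbindin, in 23.8% at 0.45 per 10000. Prox1, Rfx3, Calb1 and C1ql3 were at their highest among the 12 types in InhibNeuron cells, while C1ql2 was at 0 and Dsp, which encodes desmoplakin, had a UMI in 4.08% of cells. Slc17a7 and Prox1 were found together in 80 InhibNeuron cells (54.4%), and at least 1 of them in 133 (90.5%). Glia also held UMIs of Prox1, which was found in 26.9% of Oligodend1 cells and in 12.5% after thinning, against 22.4% of thinned InhibNeuron cells, and the part of free RNA in these values was not tested.

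**Figure D2:**
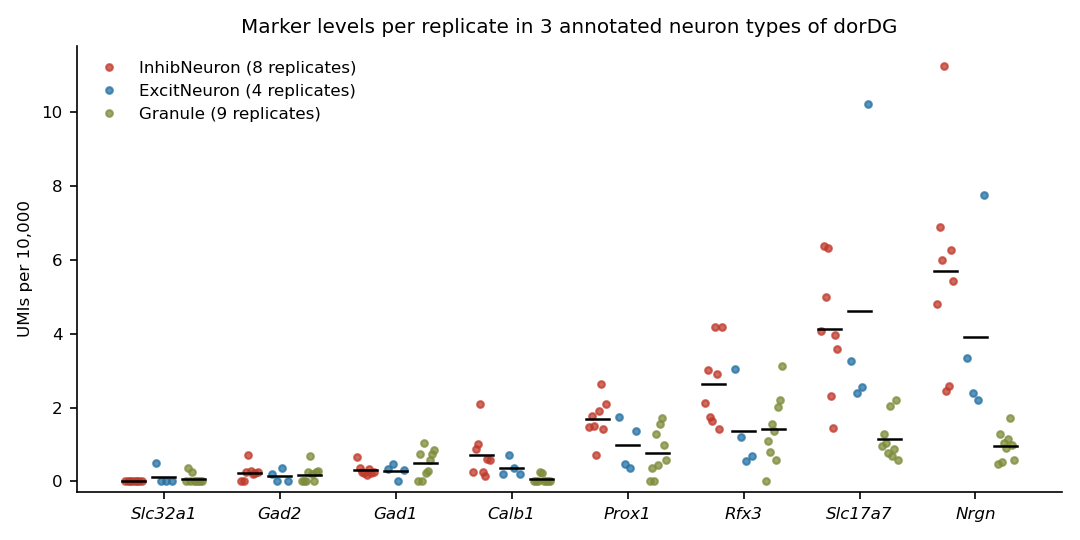
UMIs per 10000 of 8 marker genes in each replicate (points) of InhibNeuron (8 replicates), ExcitNeuron (4) and Granule cells (9), each with at least 4 cells in InhibNeuron and 5 in the others; the black line is the mean over replicates. Slc32a1 sat at 0 in all 8 InhibNeuron replicates, while Slc17a7 ranged from 1.43 to 6.36.

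Summed over each fixed list, the 7 granule cell genes came to 6.43 UMIs per 10000 in InhibNeuron cells, ranging from 4.25 to 8.35 over replicates. The sum was 4.31 in ExcitNeuron and 3.12 in Granule cells and was highest in InhibNeuron among the 12 types. The 6 excitatory neuron genes summed to 10.1 in InhibNeuron (7.73 to 20.4 over replicates), 12.8 in ExcitNeuron and 4.14 in Granule cells. The 4 inhibitory identity genes summed to 5.21 in InhibNeuron cells, of which Erbb4 alone gave 4.69, against 7.04 in oligodendrocyte precursors. Over 4226 genes, the summed InhibNeuron profile correlated most with that of ExcitNeuron (Pearson's r = 0.93, Spearman's rho = 0.92), then Granule (0.81 and 0.83), and least with Microglia1 (0.16 and 0.10). These correlations run across genes of the same libraries, and genes are not independent replicates.

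The interneuron classes could not be told apart in these cells, because most of their genes were near 0. Of 35 measured class genes, 21 had a UMI in under 10% of InhibNeuron cells, and Lhx6, Maf, Tac1, Crhbp and Ndnf were at 0. Sst (somatostatin) and Vip each had a UMI in 4 cells (2.72%), with at most 1 UMI per cell. Pvalb (parvalbumin) and Lamp5, a gene of neurogliaform cells, each had a UMI in 3 cells (2.04%). Npy (neuropeptide Y) had 3 UMIs in 2 cells (1.36%). None of these 5 genes reached 3 UMIs in any cell. Cck, which encodes cholecystokinin, had a UMI in 13 cells (8.84%), at 0.14 UMIs per 10000.

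A few class genes were common. Sox6, a transcription factor of interneurons derived from the medial ganglionic eminence, had a UMI in 88.4% of cells but was higher in oligodendrocyte precursors. Sv2c, which encodes a synaptic vesicle protein, had a UMI in 85.7%, Trpc6 in 65.3% and Adarb2, a gene of interneurons from the caudal ganglionic eminence, in 58.5%. None of these 3 was highest in InhibNeuron cells: Sv2c was at 3.45 UMIs per 10000 against 4.17 in ExcitNeuron cells, Trpc6 at 1.68 against 2.18 in Microglia1 and in Microglia2 cells, and Adarb2 at 1.54 against 1.87 in oligodendrocyte precursors. The potassium channel genes Kcnc1 and Kcnc2, listed for parvalbumin cells, were found in 46.3% and 21.8%.

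Genes of the postsynaptic side were a shared feature that the annotation names do not point to. The 12 GABA-A receptor subunit genes summed to 41.6 UMIs per 10000, the highest of the 12 types, led by Gabrb1 at 15.2, against 12.7 in ExcitNeuron cells. Of the 12, 9 were highest in InhibNeuron cells. Gabra2 was at 3.17 against 1.86 in ExcitNeuron cells, while Gabra5 was among the exceptions, at 0.63 against 0.82. Gphn, which encodes the receptor scaffold gephyrin, was at 6.29 per 10000, also its highest level among the 12 types. The 15 ionotropic glutamate receptor subunit genes summed to 111 UMIs per 10000, again the highest sum, led by Gria2 (29.2) and Gria1 (22.4). ExcitNeuron cells had 23.6 and 24.6 for these 2 genes. Receptor genes of both transmitters were thus high together, as in ExcitNeuron cells.

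Serotonin receptor genes were measured because fluoxetine acts on serotonin uptake. Htr4, which encodes the 5-HT4 receptor, had a UMI in 80.3% of InhibNeuron cells, at 2.97 per 10000 against 2.94 in ExcitNeuron cells. Htr2a had a UMI in 53.1% of cells at 1.16 per 10000, although its level was higher in 10 of the other 11 types. Htr7, Htr2b and Htr2c were each found in between 23.1% and 24.5% of cells, Htr1a in 1.36% and Htr1f in 0%. Slc6a4, which encodes the serotonin transporter, had a UMI in 5.44%. Of the neuregulin pathway, the ligand genes Nrg2 and Nrg3 had a UMI in 57.8% and 25.9% of cells and the co-receptor gene Erbb2 in 0.68%. Immediate early genes summed to 1.71 UMIs per 10000 over all InhibNeuron cells, most of which were Sham. That sum ranged from 2.77 to 5.86 over FT replicates and from 0.35 to 1.87 over Sham replicates.

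Levels were compared between InhibNeuron and the other neurons within each replicate that had at least 5 cells of both names, as log2 ratios of UMIs per 10000 with 0.1 added. The names came from clustering the same cells on the same genes, so these ratios are a description and carry no test. Against Granule (6 replicates, 5241 genes), 19 genes (0.363%) were at least 2-fold higher and 3 (0.0572%) at least 2-fold lower in every replicate. The 3 lower genes were unnamed loci. The median log2 ratio over all 5241 genes was 0.44, so an average gene was already higher in InhibNeuron cells.

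Syp, which encodes the synaptic vesicle protein synaptophysin, was among the 19. It was at 2.69, 6.19, 1.55, 0.81, 2.62 and 2.17 UMIs per 10000 in InhibNeuron and at 0.96, 2.01, 0.68, 0.29, 0.98 and 0 in Granule cells of FT replicates 1 and 2 and Sham replicates 1, 3, 4 and 5 (log2 ratio 1.85 ± 1.31, SD, n = 6). Slc4a10, a sodium-coupled bicarbonate transporter gene, had a log2 ratio of 1.48 ± 0.48 (SD, n = 6), between 1.02 and 2.24. Lmo3, which encodes a LIM-domain transcription regulator, had 2.02 ± 0.48 (SD, n = 6), between 1.19 and 2.57. These genes were counted in both cell names in nearly every replicate. Kif2a (2.12), a kinesin gene, Wasf1 (2.02), an actin regulator gene, Arhgap44 (2.01), Agap2 (1.76) and Ccdc85a (1.47) also stood at least 2-fold higher throughout. The largest mean ratio of the named genes, 2.89 for Aldh3b2, rested on 0 UMIs in 4 of the 6 Granule replicates. The Granule sums were shallow, 20849 to 54653 UMIs over replicates, so that 1 UMI was worth 0.183 to 0.480 per 10000, and in Granule cells many ratios turned on single UMIs.

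None of the listed marker, receptor or class genes was 2-fold apart in all 6 replicates, although several list medians stood above the 0.44 of all genes. The median log2 ratio was 1.28 for the 3 granule cell genes compared, 1.0 for 4 excitatory neuron genes and 0.99 for 10 GABA-A subunit genes. Of the interneuron class lists, the 1 somatostatin class gene compared stood at 1.29 and the 2 genes of the caudal ganglionic eminence at 0.86. The lists for the medial ganglionic eminence and the parvalbumin, CCK and neurogliaform classes stood at -0.49, -0.20, -0.10 and -0.02. Prox1 was higher in InhibNeuron than in Granule cells in 6 of 6 replicates, with a log2 ratio of 1.77 ± 1.26 (SD), between 0.49 and 3.97. Slc17a7 was higher in 6 of 6 as well (1.39 ± 0.95), between 0.17 and 2.46. Erbb4 did not differ by more than its spread (-0.03 ± 0.43), nor did Gad1 (-0.28 ± 1.62). The 4 immediate early genes compared had a median of -1.08. Of the Granule cells, 10 had at least 1% hemoglobin UMIs, and without them 16 genes in place of 22 were 2-fold apart.

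Against ExcitNeuron (4 replicates, 5346 genes), 16 genes (0.299%) were at least 2-fold higher and 20 (0.374%) at least 2-fold lower in InhibNeuron cells in every replicate. The median log2 ratio over all genes was 0.09. Genes lower in InhibNeuron cells were led by Neurod6, at 0, 0.14, 0.05 and 0.15 UMIs per 10000 against 0.49, 2.15, 1.28 and 1.77 in ExcitNeuron cells of FT replicate 2 and Sham replicates 1, 3 and 4 (log2 ratio -2.98 ± 0.32, SD, n = 4). Sv2b, which encodes a synaptic vesicle protein, was at 0, 0.38, 0.38 and 0.22 against 0.42, 1.67, 3.29 and 3.83 (log2 ratio -2.67). The values of InhibNeuron and ExcitNeuron did not overlap for either gene. Khdrbs3 (-2.91), an RNA-binding protein gene, Samd5 (-2.84), Stac (-2.53), Man1a1 (-2.20), Cpne7 (-2.03) and Nrip3 (-1.79) were lower too. Arc (-2.91) and Plk2 (-1.83), genes induced by neuronal activity, were lower in 4 of 4 replicates, with Arc at 0 in InhibNeuron cells of 2 of them.

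Genes higher than in ExcitNeuron cells included Adcy1, an adenylyl cyclase gene, at 1.41, 4.49, 4.40 and 3.44 UMIs per 10000 against 0.42, 2.15, 1.65 and 1.18 (log2 ratio 1.35 ± 0.23, SD, n = 4). Ccdc85a (1.76) was higher here as it was against Granule. The circadian gene Per3 (1.59), the interferon-induced gene Ifi27 (1.30), R3hdm4 (1.95), Gm8444 (1.81) and the vomeronasal receptor gene Vom2r37 (2.33) were the other named genes that were higher. Among listed genes, Gabrb2 was higher in 4 of 4 replicates (0.72 ± 0.10), though not by 2-fold throughout. Prox1 was between 0.02 and 2.55 (1.10 ± 1.27), and Slc17a7 was lower in 3 of 4 replicates (-0.31 ± 0.99). Erbb4 stood at 0.08 ± 0.32.

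**Figure D3:**
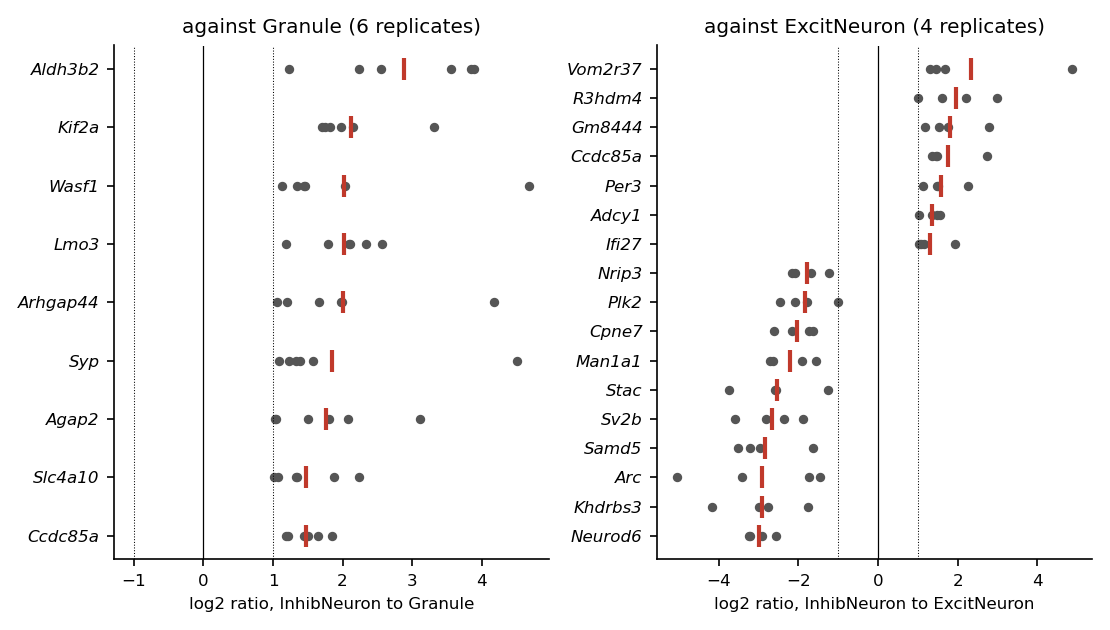
Log2 ratio of UMIs per 10000 (0.1 added) of InhibNeuron to Granule cells (left, 6 replicates) and to ExcitNeuron cells (right, 4 replicates) for the named genes; points are replicates, red bars their means and dotted lines 2-fold. Neurod6 sat lowest on the right at -2.98, and Syp, Wasf1 and Arhgap44 each have 1 replicate far to the right of the others.

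The InhibNeuron cells varied among themselves along the ribosomal share. Within FT replicate 1, Sham replicate 4 and Sham replicate 5, both low-ribosomal cells (8, 8 and 22) and other cells (6, 8 and 4) were present, so both could be compared inside a replicate. This split was chosen after its values were seen and carries no test. Nrgn was at 1.08, 0.98 and 2.11 UMIs per 10000 in low-ribosomal cells and at 8.92, 10.8 and 13.6 in the others. Slc17a7 was at 2.79, 2.29 and 2.46 against 5.49, 5.37 and 6.38. Both genes were lower in low-ribosomal cells in 3 of 3 replicates. Gria2 went the other way, at 31.9, 32.4 and 30.9 against 16.8, 20.0 and 17.1. Gphn was at 6.66, 7.68 and 7.86 against 3.60, 3.86 and 1.74. Gabrb1 and Erbb4 were likewise higher in the low-ribosomal cells of all 3 replicates, Erbb4 at 6.50, 4.09 and 5.51 against 3.09, 2.62 and 2.03. Prox1 was closer, at 1.55, 2.13 and 2.11 against 1.37, 0.83 and 2.03. A GABA gene UMI was found in 27 of the 117 low-ribosomal cells (23.1%, median depth 5154 UMIs) and in 14 of the 30 other cells (46.7%, median depth 10412 UMIs), and the part of depth in this difference was not tested.

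Reactions were compared where InhibNeuron cells came from both a first and a second reaction, 7 and 7 cells in FT replicate 1 and 1 and 46 cells in Sham replicate 1. In edgeR's quasi-likelihood test with the replicate as a block and Benjamini-Hochberg adjustment (called at an adjusted p of at most 0.2 and a log2 change of at least 0.32), 246 of 4686 genes (5.25%) were lower and 19 (0.405%) higher in the second reactions. Of 78 ribosomal protein genes tested, 46 were lower and 0 higher. Among the 62 tested genes of the fixed lists, 5 were called, among them Fos, Cnp and Rpl23a, which were lower, and Slc1a3, an astrocyte glutamate transporter gene, which was higher. Fos, an immediate early gene, had 24 and 3 UMIs in the first and 0 and 1 UMI in the second reactions of FT and Sham replicate 1. Cnp, an oligodendrocyte gene, was at 0.93 and 5.07 UMIs per 10000 in the first and 0 and 0.39 in the second reactions.

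The genes with the most extreme change were each at 0 in one reaction order, so no fold is given. Jade2 had 0 UMIs in the first and 33 in the second reactions, Itih3 0 and 40, Ap4e1 0 and 34, Zbtb44 0 and 26 and Sec14l4 0 and 12, of 72389 and 340150 UMIs in all. Those of Sec14l4 came from FT replicate 1 only. Ccl4, a chemokine gene of microglia, had 19 and 0 UMIs, Atf3, a stress-induced transcription factor gene, 11 and 0, Laptm5 5 and 0, Ccl2 4 and 0 and Hexim1 2 and 0. The first reaction of Sham replicate 1 was a single InhibNeuron cell of 7887 UMIs, so the test rests in part on that cell. DESeq2 called 31 genes, and 0 were called by edgeR without the expression filter, with 121 at an unadjusted p under 0.05.

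The share of InhibNeuron cells among all dorDG cells asks whether fluoxetine went with more or fewer of them. It was 9.79%, 2.54%, 3.05% and 4.04% in FT replicates 1, 2, 4 and 5 and 20.4%, 0%, 31.0%, 11.9% and 22.4% in Sham replicates 1 to 5, where 0 of 138 cells allows up to 2.17%. In 4 of 5 Sham replicates the share was above every FT replicate, and the groups overlapped only through Sham replicate 2. The mean was 4.86% ± 3.35 (SD, n = 4) in FT and 17.1% ± 11.8 (SD, n = 5) in Sham, a difference of -12.3 percentage points (two-sided exact permutation test, p = 0.127, smallest possible 0.00794). Without Sham replicate 2 the difference was -16.6 points (exact permutation p = 0.0286, the smallest possible). Leaving out that replicate removes the only overlap, which by itself gives the smallest possible p. With any other single replicate left out, the exact permutation p lay between 0.143 and 0.229.

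The share was also taken within each ribosomal class and among neurons. Low-ribosomal cells were 4.08% to 9.17% of all cells in the 4 first reactions and 78.3% to 93.9% in the 4 second reactions. In the single reactions they were 14.5% and 15.2% in FT and 72.0%, 31.9% and 44.8% in Sham. Among cells with at least 2% ribosomal UMIs, the InhibNeuron share was 3.98% ± 0.857 (SD, n = 4) in FT and 3.19% ± 4.03 (SD, n = 5) in Sham, and the difference turned to 0.793 points (exact permutation p = 0.698). In cells below that boundary it was 8.86% ± 12.8 (SD, n = 4) in FT and 28.0% ± 18.5 (SD, n = 5) in Sham, a difference of -19.1 points (exact permutation p = 0.143). Among cells with any of the 3 neuron names it was 20.3% ± 13 (SD, n = 4) in FT and 47.7% ± 30.3 (SD, n = 5) in Sham, a difference of -27.4 points (exact permutation p = 0.159). Within the second reactions of replicate 1, FT had 30.4% (7 of 23 cells) and Sham 34.8% (46 of 132). Within first reactions the shares were 5.83% and 4.27% in FT and 1.02% and 0% in Sham. Nothing in the labels separates the 2 groups' single reactions by kind, so treatment and composition of the reactions cannot be told apart there.

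The name itself was not given evenly. The second reactions of FT replicate 2 (80 cells) and Sham replicate 2 (77 cells) held 92.5% and 85.7% low-ribosomal cells but 0 InhibNeuron cells, whereas those of replicate 1 held 30.4% and 34.8%. Their other neuron names were more frequent: FT replicate 2 had 22 ExcitNeuron and 19 Granule cells there, and Sham replicate 2 had 32 Granule cells. The 3 neuron names together came to 51.2% and 41.6% of cells in these reactions and to 52.2% and 45.5% in the second reactions of FT and Sham replicate 1. The median depth of all cells was 1548 and 1549 UMIs in the second reactions of replicate 2, against 5323 and 2723 in those of replicate 1. The shallowest InhibNeuron cell had 1549 UMIs. The part of depth in the choice of name was not tested.

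**Figure D4:**
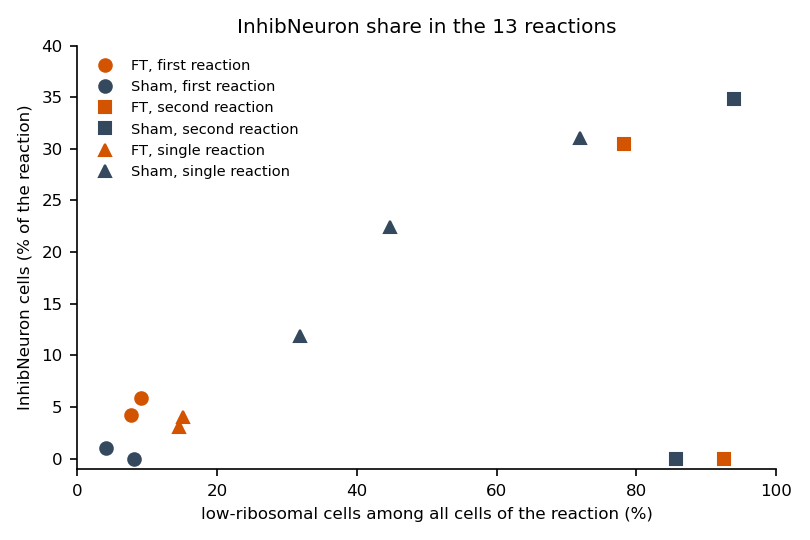
Percent of cells named InhibNeuron against the percent of low-ribosomal cells in each of the 13 reactions (points; colour gives FT or Sham, shape the reaction order). Shares were 0% to 5.83% in the 6 reactions with the fewest low-ribosomal cells and 11.9% to 34.8% in 5 with more, while 2 second reactions stood at 0% with 85.7% and 92.5%.

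Within InhibNeuron cells, expression was compared between 4 FT and 4 Sham replicates on summed UMIs (40019 to 289640 per replicate). Of 4657 genes, 0 (0%) passed edgeR's quasi-likelihood test with Benjamini-Hochberg adjustment at an adjusted p of at most 0.2, the lowest being 0.201. At an unadjusted p under 0.05, 494 genes (10.6%) were higher and 281 (6.03%) lower in FT. The 2 groups did not overlap for 145 genes higher (3.11%) and 331 lower (7.11%) in FT. DESeq2 called 308 genes and limma 0, so the number of calls depended on the tool. It also depended on single libraries, with 1468 genes called without Sham replicate 4 and 854 without FT replicate 1, but 0 without any other replicate. With the replicate block, over the 3 replicate numbers that had InhibNeuron cells in both groups, edgeR gave 953 calls among 4633 genes, of which 622 (13.4%) were for a higher level in FT and 331 (7.14%) for a lower one, while the same samples gave 0 without the block. The block leaves few residual degrees of freedom. The sources do not say whether same-numbered FT and Sham samples of the fresh tissue used here were handled together, so values with and without the block are given side by side.

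The genes with the smallest p, which missed the threshold without the block, separated the groups. With the replicate block, the 10 genes named here were all called, at edgeR adjusted p values between 0.00023 and 0.05. Over all genes, 13.4% were called higher and 7.14% lower with that block. The 10 genes were picked for their p in these same samples. Neither their separation nor their calls with the block are therefore independent evidence. Mt-atp6, a mitochondrially encoded ATP synthase gene, was at 141, 202, 149 and 164 UMIs per 10000 in FT and at 49.6, 69.3, 103 and 63.1 in Sham (log2 fold change 1.29, SE 0.27, edgeR adjusted p = 0.201). Cryab, which encodes a small heat shock protein of glia and stressed cells, was at 0.98, 1.94, 1.0 and 0.94 in FT and 0.14, 0.29, 0.30 and 0.33 in Sham (2.34). Prdx1, a peroxiredoxin gene, was at 0.90, 1.94, 2.00 and 1.64 against 0.55, 0.43, 0.45 and 0.50 (1.73). All FT values of these genes lay above all Sham values. Ccl4 (2.82) and Rnps1 (2.38), a splicing factor gene, had the other 2 of the 5 smallest p values among genes higher in FT.

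On the lower side, Rictor, which encodes a subunit of mTOR complex 2, was at 0.16, 0, 0.25 and 0 UMIs per 10000 in FT and 0.83, 1.20, 1.35 and 0.58 in Sham (log2 fold change -2.94, SE 0.67, edgeR adjusted p = 0.201). Hdac8, a histone deacetylase gene, was at 0.90, 0.71, 0.50 and 0.47 against 2.42, 2.01, 1.94 and 2.00 (-1.50). Prkca, which encodes protein kinase C alpha, was at 0.49, 0.35, 0.75 and 0.47 against 1.42, 2.30, 2.32 and 1.09 (-1.72). Again the groups did not overlap. The ubiquitin ligase genes Rnf220 (-1.95) and Ube3c (-1.34) had the other 2 of the 5 smallest p values among genes lower in FT.

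**Figure D5:**
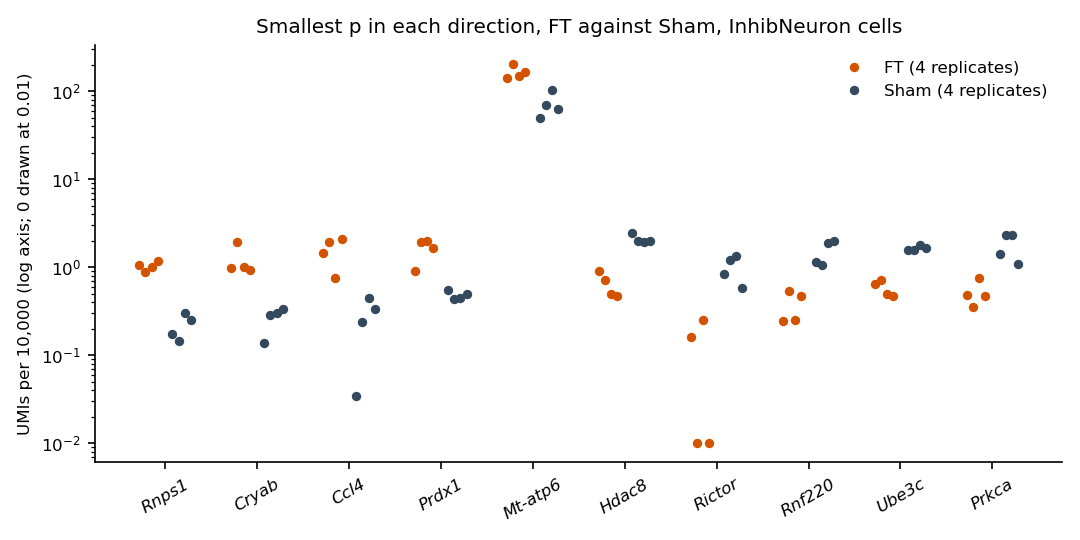
UMIs per 10000 (log axis; 0 drawn at 0.01) of the 5 genes with the smallest p in each direction in InhibNeuron cells of 4 FT and 4 Sham replicates (points). The groups did not overlap for any of the 10 genes, and the edgeR adjusted p values lay between 0.201 and 0.226.

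Several of these changes had another size within low-ribosomal cells. In low-ribosomal cells alone, the log2 fold change of Cryab was 0.76 in place of 2.34, of Ccl4 1.27 in place of 2.82 and of Prdx1 1.03 in place of 1.73. That of Mt-atp6 was 1.06, of Rictor -3.17, of Prkca -2.17 and of Hdac8 -1.11. The directions of these 7 genes were the same, and 2 genes in all were called in these cells. The 79 ribosomal protein genes tested had a median log2 fold change of 1.24, with 34 higher at an unadjusted p under 0.05. That median was 0.77 in low-ribosomal cells and -0.13 with both ribosomal classes of each replicate in the fit and the class as a covariate. The 13 mitochondrially encoded genes had a median of 1.29, with 12 higher at that level, and medians of 0.95 and 0.80 in the other 2 fits. The median of all 4657 genes was -0.06, and 10.6% of them were higher at an unadjusted p under 0.05.

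The fixed lists carried 0 called genes without the block and 29 of 67 with the replicate block. With that block, 13.4% of all genes were called higher and 7.14% lower. Without it, 10.6% of all genes were higher and 6.03% lower at an unadjusted p under 0.05. Fos was the 1 immediate early gene tested, at 1.95, 2.30, 2.25 and 4.22 UMIs per 10000 in FT and 0.14, 0.86, 0.82 and 0.42 in Sham (log2 fold change 2.35, edgeR adjusted p = 0.201), and at a log2 fold change of 0.54 in low-ribosomal cells. Slc17a7 stood at 1.03, also without overlap, which held for 3.11% of all genes on the higher side. The 10 GABA-A subunit genes tested had a median of -0.48, and 0 of them reached an unadjusted p of 0.05, while 4 were called lower with the replicate block. The 12 glutamate receptor subunit genes tested had a median of -0.55, and 3 of them, Gria1, Grik2 and Grik5, were lower at that level, with 5 called lower with the replicate block. Gria1 was at 15.8, 14.8, 13.7 and 15.7 in FT and 23.3, 28.6, 18.2 and 29.9 in Sham (log2 fold change -0.63). Gphn (-0.89) and Sox6 (-0.93) were also lower at an unadjusted p under 0.05, and the myelin gene Mbp (0.80), listed for oligodendrocytes, was higher. Erbb4 stood at -0.70 with overlapping groups.

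A list of 12 genes that the study names for inhibitory neurons was also examined. They were chosen on these samples, so their direction here is not independent evidence. Of the 11 tested, 5 were higher at an unadjusted p under 0.05 (Rps3, Uqcrh, Uqcrq, Ndufv2 and Atp5d, genes of the ribosome and of oxidative phosphorylation) and Cacna1a, a calcium channel gene, was lower, with 0 called. Over all genes, 10.6% were higher and 6.03% lower at that unadjusted level. With the replicate block 7 were called higher and 2 lower, against 13.4% and 7.14% of all genes. Atp5d was at 1.46, 2.12, 2.50 and 1.64 UMIs per 10000 in FT and 0.45, 0.48, 1.05 and 0.42 in Sham (log2 fold change 1.77). Cacna1a was at 2.20, 1.94, 2.00 and 2.58 against 4.56, 5.21, 3.66 and 5.35 (-1.0). Both separated the groups, as 3.11% of all genes did on the higher and 7.11% on the lower side. In the 3 replicates with both ribosomal classes, Cacna1a was at 2.63, 6.87 and 6.69 in low-ribosomal and at 1.72, 0.96 and 2.03 in other cells. Low-ribosomal cells were rarer in FT, and their part in this difference was not tested beyond the fits given.

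Whether the response to fluoxetine differed between InhibNeuron cells and the other neurons was tested as an interaction. Against Granule, 0 of 4334 genes (0%) were called by edgeR, 216 having an unadjusted p under 0.05. DESeq2 found 0 too. Against ExcitNeuron, 1 of 4604 genes (0.0217%) was called, Gng3, a G protein gamma subunit gene (log2 difference 4.09, SE 0.96, edgeR adjusted p = 0.0922). In InhibNeuron cells Gng3 had 7, 12, 3 and 4 UMIs in FT and 4, 2, 5 and 2 in Sham. In ExcitNeuron cells it had 4, 3, 1 and 2 in FT and 3, 0, 49 and 7 in Sham. The FT replicate 4 value of ExcitNeuron came from 1 cell of 1244 UMIs, and the Sham total rested mainly on replicate 4. Gng3 was not called by DESeq2, and 0 genes were called without FT replicate 2 or without any 1 of the 4 Sham replicates.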

How the data were processed

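Per the labels, the authors sequenced Chromium 3′ v2 libraries of rat dorDG and ventral dentate gyrus (108 libraries, 52 of dorDG), aligned and counted them with Cell Ranger and clustered cells with Seurat 3. The labels name the build rn5. The deposited dorDG table holds raw UMI counts of 19127 genes in 1289 cells that the authors had filtered, and a deposited metadata table of other per-cell fields gives their cell names. Ventral files were not used here.

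UMIs of InhibNeuron cells were summed per label replicate, reactions together (40019 to 289640 UMIs). The metadata number the replicates differently, but both numberings put the same FT and Sham reactions under a shared number. The labels' numbers were used, and an FT replicate 3 was not analysed here. The methods describe parallel handling of Sham and FT within a replicate for frozen tissue, not for the fresh tissue of these libraries. As replicates pooled animals, p-values measure the spread between pools. Testing used edgeR 4.0.16 (TMM, quasi-likelihood) in R 4.3.3 on genes averaging 0.5 UMIs per 10000 or more. A gene was called when its p, adjusted by Benjamini-Hochberg, did not exceed 0.2 and its log2 change reached 0.32. Tests across genes were run first on simulated data. Alternatives were DESeq2 1.42.0 with its size factors, limma 3.58.1, no filter, a replicate block, subsets of cells and each replicate left out. Shares were compared by exact permutation tests (scipy 1.17.1). Level ratios between names carry no test. Low-ribosomal cells had under 2% of UMIs from 120 ribosomal protein genes, a boundary set after the distribution was seen, with 3 InhibNeuron cells between 1.5% and 2.5%. Doublets were not called. Within groups, 12 replicate pairs differed by a chi-square of 1.60 to 5.45 per degree of freedom, beyond sampling noise.

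Named genes were those of the fixed lists (183 genes, 15 not measured), the 5 smallest p in each direction for FT against Sham when fewer than 10 genes were called, the 5 highest and 5 lowest called changes between reactions and in interactions, and up to 10 level ratios in each direction at 1 UMI per 10000 or more. Unnamed loci were left out, and Tac3 was added after its values were seen. The cells, the lists and the tests were chosen with earlier results of these data known. Ribosomal protein genes have many related copies, among which the counting may split reads. Some listed genes are not reported here.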

Additional observations from a re-analysis of the deposited data

Results flagged for a closer look

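Of 70 groups of 4 to 6 replicate values examined, 10 had a replicate far from the others by Dixon's criterion. Chance gives about 5% in groups not picked for their values. The groups here included genes picked by p or ratio, and Tac3, added after its values were seen, so that rate does not apply. In InhibNeuron cells of FT replicate 2, Tac3, which encodes the neurokinin B precursor, was at 23.3 UMIs per 10000, against 0.33 or less in the other 3 FT replicates. All 5 InhibNeuron cells there had a Tac3 UMI, 132 in all and up to 72 in a cell, whereas no Sham replicate exceeded 0.42 per 10000. In the same replicate, ExcitNeuron cells had 17 Tac3 UMIs in 8 of 26 cells (1.18 per 10000) and Granule cells 4 UMIs in 4 of 23 cells (0.73 per 10000). Cryab in FT replicate 2 was at 1.94 per 10000, the next FT value being 1.0, and Hdac8 in Sham replicate 1 was at 2.42, the next Sham value being 2.01.

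Against Granule cells, the log2 ratios of Kif2a (3.31) and Arhgap44 (4.18) in FT replicate 1, of Wasf1 (4.69) in FT replicate 2 and of Syp (4.51) in Sham replicate 5 stood far above the other 5 replicates. In each of these the Granule cells had 0 UMIs of the gene. Against ExcitNeuron cells the same held for Vom2r37 in Sham replicate 1 (4.87), again with 0 UMIs in the other name, and for Ccdc85a in Sham replicate 3 (2.74) and Ifi27 in FT replicate 2 (1.93), where both names had UMIs. The FT effect on Gng3 differed between InhibNeuron and ExcitNeuron cells by 4.09 on the log2 scale in the interaction test.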

How the results depend on the processing

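FT against Sham in InhibNeuron cells gave 0 called genes, also with limma, with at least 5 cells per replicate and at an adjusted p of 0.05. It gave 308 with DESeq2, 26 with edgeR on DESeq2 size factors, 482 without the expression filter, 2 in low-ribosomal cells, 5 in the other cells, 4 with the ribosomal class as covariate and 0 to 1468 with a replicate left out. Same-numbered FT and Sham replicates correlated in their deviations at 0.38, 0.40 and 0.052, and FT replicate 1 correlated best with Sham replicate 3 (0.49), so the deviations alone do not show that the numbers pair the samples. With the replicate block over these 3 pairs 953 genes were called, against 0 in the same samples without it (a comparison added after seeing the data). The reaction comparison (265 genes) gave 31 with DESeq2, 112 with DESeq2 size factors, 0 without the filter and 719 without the replicate block, and no replicate could be left out because 1 pair would remain. The FT effect against ExcitNeuron (1 gene) gave 0 with DESeq2 and with its size factors, 2 in low-ribosomal cells and 0 to 3 with a replicate left out, and against Granule (0 genes) 0 to 2, the 2 without Sham replicate 5. Neither count changed without the replicate block, but the 1 gene without the expression filter was lower, not higher. The share difference of -12.3 points turned to 0.793 in cells of at least 2% ribosomal UMIs, was -19.1 in low-ribosomal cells, -27.4 as a share of neurons and -8.82 with the replicate block over 4 pairs (exact permutation p = 0.25) and lay between -16.6 and -8.82 with a replicate left out. Genes 2-fold apart from Granule (22) fell to 0 with a pseudocount of 1 or at 4-fold and numbered 28 to 55 with a replicate left out. Those 2-fold apart from ExcitNeuron (36) fell to 1 in both cases, numbered 73 in low-ribosomal cells and 85 to 117 with a replicate left out. Fewer replicates make that rule easier to meet. Cells with a GABA gene UMI fell from 27.9% to 7.48% after thinning. Where no cause is stated, the cause was not tested. The 10 genes with the smallest p for FT against Sham and the named level ratios kept their direction wherever an alternative gave a value. Not all genes of the fixed lists were followed in this way. Depth limits what 4 or 5 cells per replicate can show: in FT replicates 4 and 5, 1 UMI was a large part of a low gene's value.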

Other observations

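The highest GABA gene counts were in cells outside the InhibNeuron name. Of the 7 dorDG cells with at least 3 UMIs of Gad1, Gad2 and Slc32a1 together, 2 in FT replicate 2 stood highest. The first was an ExcitNeuron cell with 11 such UMIs of 2058, and the second a Granule cell with 6 of 858, of which 4 were Gad1 and 2 Slc32a1. Both had 0 UMIs of Slc17a7 and of Prox1. A Granule cell of FT replicate 5 had 5 GABA gene UMIs of 8079 together with 3 of Slc17a7 and 2 of Prox1. An ExcitNeuron cell of FT replicate 4 had 4 of 1244 and 0 of Slc17a7. These cells were picked for their counts, and no test was made.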
